A study of Mus musculus with 6 samples.

Results

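Heart transcripts of the NRF2 pathway were examined in mice with a nonsense mutation in *Dst-b*, the muscle isoform of dystonin. The genes were *Nfe2l2*, which encodes the transcription factor NRF2, *Keap1*, which encodes its inhibitor, and 6 classical targets outside the glutathione transferases, namely *Nqo1*, *Hmox1*, *Gclc*, *Gclm*, *Txnrd1* and *Srxn1*. They were taken by gene symbol, not by a cut on their values, though earlier results of these data were known. They made up 8 of the 13003 genes listed. All 8 passed the filter on low counts that left 12955 genes for testing. A single gene of the 8 passed the test between genotypes: *Nqo1* was 1.73-fold lower in the mutant hearts. The means of *Nfe2l2*, the NRF2 mRNA itself, differed by less than their SD.

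NRF2 is made continuously and, in an unstressed cell, is held by KEAP1 and passed by the ubiquitin ligase built on CUL3 to the proteasome. Oxidants and electrophiles modify cysteines of KEAP1, NRF2 then escapes breakdown, enters the nucleus, pairs with a small MAF protein and binds antioxidant response elements, short DNA motifs near its target genes. Because this control acts on the protein, the mRNA levels of *Nfe2l2* and *Keap1* do not report the activity of the pathway. In the heart the pathway is known for buffering oxidants from the dense mitochondria of cardiomyocytes, and the autophagy adaptor p62 (*Sqstm1*) can compete with NRF2 for KEAP1.

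RNA came from the ventricular myocardium of 3 wild-type (WT) mice, labelled replicates 1, 3 and 4, and of 3 *Dst-b* mutant mice, labelled replicates 1, 2 and 3, which carried a *Dst-b* nonsense allele on both chromosomes, all on a C57BL/6J background and 14 to 19 months old. The allele was made by CRISPR/Cas9 in an exon that the *Dst-b* isoform alone uses, so it is carried in every tissue, and homozygotes came from matings of heterozygotes. Several independent lines carried the allele in the study, and the line behind each library is not given in the sources used here. Libraries were of poly-A RNA with paired-end reads, 1 per heart, with 40693854 to 57580110 tags listed. The total *Dst* count, which sums all isoforms, was 448 ± 25.2 CPM (tag counts scaled to library size with edgeR's TMM factors; SD, n = 3) in WT libraries and 430 ± 24.1 CPM in mutant libraries, and it cannot show the loss of 1 isoform. Of the 8 cardiomyocyte markers, 1 was called higher (*Actc1*) and 1 lower (*Mb*), beside 2.80% and 1.84% of all genes tested. The summed CPM of the 8 markers was 105095 to 108200 in WT and 102431 to 113773 in mutant libraries. Of 5 tested atrial markers none was called, with a median log2 fold change of -0.71. *Myl7*, the atrial myosin light chain, was uneven within both genotypes, at 48.7, 144 and 58.1 CPM in WT replicates 1, 3 and 4 and at 13.9, 41.7 and 88.6 CPM in mutant replicates 1, 2 and 3. *Nppa* was at 119, 671 and 144 CPM in WT and 877, 926 and 639 CPM in mutant replicates in the same order. Its log2 fold change was 1.39 (edgeR's quasi-likelihood test, adjusted p = 0.231). The study reports *Nppa* raised in the left ventricle of mutants by in situ hybridisation and in cardiac tissue by quantitative PCR. It also lists the gene as up-regulated in these libraries. *Stard10* was lower in every mutant library, at -0.45 (edgeR's quasi-likelihood test, adjusted p = 0.138). Mutant replicate 2 held 0 tags on the Y-linked genes *Ddx3y*, *Eif2s3y*, *Kdm5d* and *Uty* and 204 CPM of *Xist*, where the other 5 libraries held at most 0.299 CPM of *Xist*. By these genes it came from a female mouse and the other 5 libraries from males, which the labels do not state, and results below are also given without these libraries where they rest on them.

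The promoters of *Nqo1* and *Srxn1* are shown because, among the 6 genes with a window, they held the fewest and the most matches to the antioxidant response element. The sequences are the RefSeq windows on GRCm38.p6 from 250 bases before to 50 bases from the transcription start, 5′ to 3′ on the strand of the gene, and capitals mark each match to TGANNNNGC on either strand.
*Nqo1*, chr8:107403156-107403455, minus strand: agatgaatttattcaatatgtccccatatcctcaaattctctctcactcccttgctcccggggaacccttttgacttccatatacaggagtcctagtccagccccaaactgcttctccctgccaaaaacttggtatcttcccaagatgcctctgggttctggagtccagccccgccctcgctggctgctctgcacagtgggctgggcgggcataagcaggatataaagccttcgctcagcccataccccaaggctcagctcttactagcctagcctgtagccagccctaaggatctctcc
*Srxn1*, chr2:152105274-152105573, plus strand: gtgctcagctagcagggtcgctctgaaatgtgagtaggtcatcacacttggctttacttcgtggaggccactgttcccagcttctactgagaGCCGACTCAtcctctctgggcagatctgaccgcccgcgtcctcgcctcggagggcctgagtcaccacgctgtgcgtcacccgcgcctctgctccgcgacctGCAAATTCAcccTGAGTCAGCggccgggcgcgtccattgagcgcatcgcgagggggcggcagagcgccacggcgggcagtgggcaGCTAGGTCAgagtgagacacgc
The *Nqo1* window held 0 matches. The *Srxn1* window held 4: TGAGTCGGC on the opposite strand 158 bases before the start, TGAATTTGC on the opposite strand 57 bases before it, TGAGTCAGC on the strand of the gene 45 bases before it and TGACCTAGC on the opposite strand 28 bases past it. Windows were given for 6 of the 8 genes, *Hmox1* and *Gclc* being the 2 without one. *Nfe2l2* held TGACTCCGC, *Keap1* held TGAACCTGC and *Gclm* held TGACGGTGC, 1 match each, while of 3 windows for *Txnrd1* the first held 0, the second TGACAAAGC and the third TGAAACCGC. TGANNNNGC was present in 41.3% of all 32851 windows and its subset TGACNNNGC in 12.4%, so the motif is common in windows of this length. A match is a run of letters and not a bound site, and elements farther from the start lie outside these windows.

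*Nqo1* encodes NAD(P)H quinone dehydrogenase 1, which reduces quinones fully in a single step and so keeps them from cycling with oxygen. The gene lies on chromosome 8 at 107388225 to 107403205, minus strand. WT replicates 1, 3 and 4 held 108, 89.2 and 128 CPM of its mRNA, and mutant replicates 1, 2 and 3 held 67.7, 55.3 and 64.7 CPM. Every mutant library lay below every WT library, and the lowest WT value, in replicate 3, was still above the highest mutant value. The mean fell from 108 ± 19.2 to 62.6 ± 6.48 CPM (SD, n = 3 each), a log2 fold change of -0.79 (SE 0.12, 95% interval -1.07 to -0.51, edgeR's quasi-likelihood test, adjusted p = 0.0118). On the linear scale mutant hearts had 0.578 of the WT level, with an interval of 0.477 to 0.701. With p below 0.01 and adjusted p below 0.1 required, the test called 4.64% of all 12955 genes, 2.80% higher and 1.84% lower, and 1 of the 8 NRF2 pathway genes, lower. The study names *Nqo1* from these same libraries, so its call here is not independent evidence. The study also measured *Nqo1* by quantitative PCR and reports a significant difference there, which was not examined here. In whole tissue, a smaller share of the cells that make *Nqo1* and less *Nqo1* mRNA per cell cannot be told apart.

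**Figure D1:**
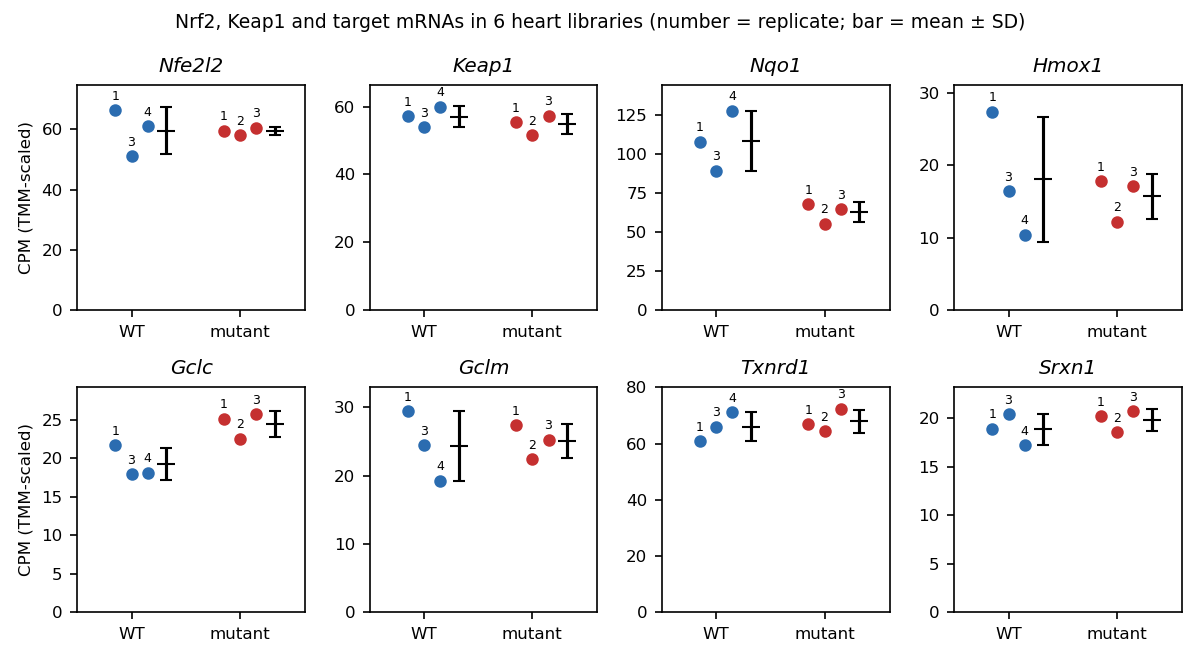
Each panel plots the CPM (TMM-scaled, axis from 0) of 1 gene in the 3 WT (blue) and 3 mutant (red) libraries, numbered by replicate, with the mean ± SD in black. *Nqo1* and *Gclc* are the 2 genes whose WT and mutant points do not overlap, *Nqo1* from 89.2 to 128 against 55.3 to 67.7 CPM, and the WT points of *Hmox1* spread from 10.4 to 27.4 CPM.

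The fall of *Nqo1* did not rest on a single heart. Without mutant replicate 2, the female, the log2 fold change was -0.71 (edgeR's quasi-likelihood test, adjusted p = 0.0279), and without both mutant replicate 2 and WT replicate 3, which held the most *Myl7*, it was -0.83 (adjusted p = 0.00711). Over all 18 alternative settings it lay between -0.91 and -0.57 and was called in each. Of the tested genes that lie within 250 kb of *Nqo1*, none of the 5 was called by edgeR's quasi-likelihood test, with log2 fold changes of -0.17 for *Cyb5b*, -0.14 for *Nfat5*, -0.07 for *Nob1*, -0.03 for *Wwp2* and 0.15 for *Psmd7*, the last at an unadjusted p of 0.0315.

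Neither regulator passed the test. *Nfe2l2* (chromosome 2, 75675513 to 75704663, minus strand) was at 66.2, 50.9 and 61.0 CPM in WT replicates 1, 3 and 4 and at 59.5, 58.0 and 60.5 CPM in mutant replicates 1, 2 and 3. The mutant values lay inside the WT range, with means of 59.4 ± 7.78 and 59.3 ± 1.23 CPM. The log2 fold change was 0.00 (SE 0.09, 95% interval -0.21 to 0.21, edgeR's quasi-likelihood test, adjusted p = 0.992), so that the data leave room for a level between 0.864 and 1.15 times that of WT.

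*Keap1* encodes the cysteine-rich sensor that ties NRF2 to its ubiquitin ligase and lies on chromosome 9 at 21229730 to 21239332, minus strand. It was at 57.2, 53.9 and 59.9 CPM in WT replicates 1, 3 and 4 and at 55.4, 51.6 and 57.3 CPM in mutant replicates 1, 2 and 3. The groups overlapped, and the log2 fold change was -0.06 (95% interval -0.22 to 0.10, edgeR's quasi-likelihood test, adjusted p = 0.749). Exons of *Keap1* share 510 bases with the antisense gene *Gm16754* in GENCODE M21, and since the strand setting of the counting is not given in the sources used here, reads from those bases could come from either gene.

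**Figure D2:**
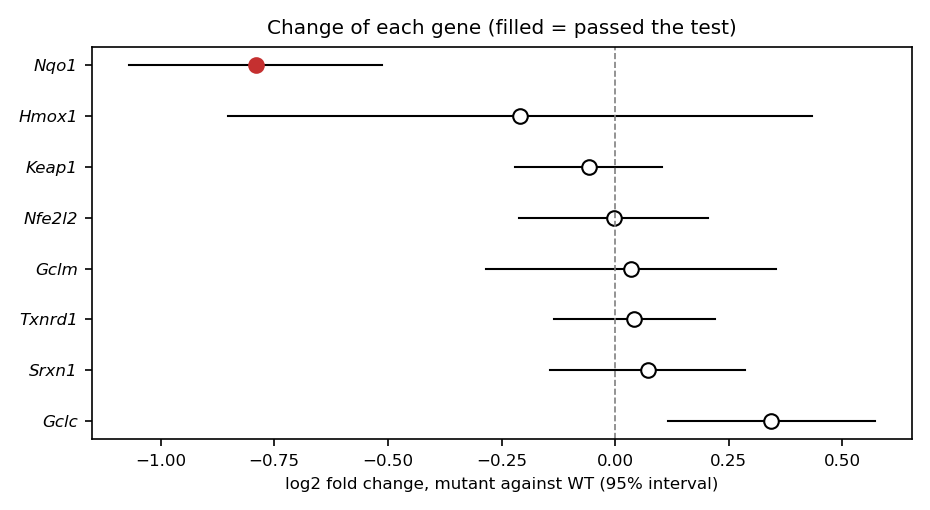
The log2 fold change of each gene, mutant against WT, is plotted as a point with its 95% interval from edgeR's quasi-likelihood fit, filled where it passed the test. The intervals of *Nqo1* (-1.07 to -0.51) and *Gclc* (0.12 to 0.57) lie on opposite sides of 0, and the other 6 cross it.

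Glutathione synthesis begins with glutamate-cysteine ligase, an enzyme of a catalytic subunit encoded by *Gclc* and a modifier subunit encoded by *Gclm*. *Gclc* (chromosome 9, 77754535 to 77794489, plus strand) was at 21.7, 17.9 and 18.1 CPM in WT replicates 1, 3 and 4 and at 25.1, 22.5 and 25.7 CPM in mutant replicates 1, 2 and 3. Every mutant library lay above every WT library, though mutant replicate 2 exceeded WT replicate 1 by little. The means were 19.2 ± 2.10 and 24.5 ± 1.70 CPM and the log2 fold change 0.34 (SE 0.10, 95% interval 0.12 to 0.57), with a p of 0.00709 that edgeR's quasi-likelihood test adjusted to 0.123, past the bar of 0.1. The gene was therefore not called, but it was called in 4 of the 18 alternative settings. It passed edgeR's exact test (adjusted p = 0.0766), DESeq2 (adjusted p = 0.0563) and edgeR's quasi-likelihood test without WT replicate 1 (adjusted p = 0.0858). It also passed edgeR's quasi-likelihood test with the replicate numbers as a block, which compares only replicates 1 and 3 (adjusted p = 0.0889). From these same libraries the study lists *Gclc*, *Abcc1* and *Gpx1* as up-regulated and *Ggt5* as down-regulated, so their values here are not independent evidence either. With *Nqo1*, *Gclc* made 2 of 8 genes whose WT and mutant libraries did not overlap, against 21.9% of all genes tested, and 2 of 8 with an unadjusted p under 0.05, against 16.5%.

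*Gclm* (chromosome 3, 122245487 to 122267215, plus strand) was at 29.5, 24.4 and 19.2 CPM in WT replicates 1, 3 and 4 and at 27.4, 22.4 and 25.3 CPM in mutant replicates 1, 2 and 3. All mutant values lay within the WT range. The log2 fold change was 0.04 (SE 0.14, 95% interval -0.28 to 0.35, edgeR's quasi-likelihood test, adjusted p = 0.933), and a difference between the changes of the 2 subunits was not tested. Exons of *Gclm* share 296 bases with *Gm17494* on the opposite strand and 244 bases with the pseudogene *Gm6061* on its own strand in GENCODE M21.

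*Hmox1* encodes haem oxygenase 1, which opens the haem ring and releases iron, carbon monoxide and biliverdin, and it is repressed by BACH1 as well as induced by NRF2. The gene lies on chromosome 8 at 75093618 to 75100593, plus strand. It was the most variable of the 8 genes within WT, at 27.4, 16.4 and 10.4 CPM in replicates 1, 3 and 4, a range of 2.63-fold, against 17.8, 12.2 and 17.1 CPM in mutant replicates 1, 2 and 3. WT replicate 1 lay above all mutant libraries and WT replicate 4 below them. The coefficient of variation was 47.7% in WT and 19.5% in mutant hearts, and the log2 fold change of -0.21 had the widest interval of the 8, -0.85 to 0.43 (edgeR's quasi-likelihood test, adjusted p = 0.775). Without WT replicate 1 the sign turned, to 0.23.

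*Hmox1* and *Gclm* ordered the hearts alike, replicate 1 over 3 over 4 in WT and 1 over 3 over 2 in the mutant. After the genotype means were subtracted, their log2(CPM + 0.5) had a Pearson correlation of 0.986 over the 6 libraries, the closest pair among the 8 genes, followed by *Nqo1* and *Keap1* at 0.916. The values of 1 library share its depth, scaling and tissue sample, and with 6 libraries these correlations only describe them.

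The thioredoxin-linked genes also stayed short of the test's threshold. *Txnrd1* (chromosome 10, 82833951 to 82897724, plus strand) encodes the cytosolic thioredoxin reductase, a selenoprotein that recharges thioredoxin. It was at 60.8, 66.0 and 71.2 CPM in WT replicates 1, 3 and 4 and at 67.0, 64.5 and 72.4 CPM in mutant replicates 1, 2 and 3. The ranges overlapped, from 64.5 to 71.2 CPM, with a log2 fold change of 0.04 (95% interval -0.14 to 0.22, edgeR's quasi-likelihood test, adjusted p = 0.845).

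*Srxn1* (chromosome 2, 152105524 to 152111376, plus strand) encodes sulfiredoxin, which repairs overoxidised peroxiredoxins. It was at 18.96, 20.4 and 17.3 CPM in WT replicates 1, 3 and 4 and at 20.2, 18.6 and 20.7 CPM in mutant replicates 1, 2 and 3. The groups overlapped here too, and the log2 fold change was 0.07 (95% interval -0.14 to 0.29, edgeR's quasi-likelihood test, adjusted p = 0.768). The median log2 fold change of the 8 genes was 0.02, beside 0.00 for all genes tested.

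Levels of different genes were compared per exon length, with the deposited RPKM (reads per kilobase of exon, scaled to the tags of the library). *Nqo1* stood at the top in both genotypes, at 69.0, 57.3 and 81.6 RPKM in WT replicates 1, 3 and 4 and at 44.4, 36.2 and 40.8 RPKM in mutant replicates 1, 2 and 3. Even after its fall it lay above *Nfe2l2*, next in order, at 23.9 RPKM for WT and 24.1 RPKM for mutant libraries. Then came *Txnrd1* (17.8 and 18.5 RPKM in WT and mutant), *Gclm* (16.5 and 17.1 RPKM), *Keap1* (12.7 and 12.3 RPKM), *Hmox1* (11.4 and 9.98 RPKM), *Srxn1* (7.27 and 7.71 RPKM) and *Gclc* (5.58 and 7.16 RPKM). The means kept this order in both genotypes. *Nqo1* and *Nfe2l2*, and *Nfe2l2* and *Txnrd1*, did not overlap over libraries in either genotype, whereas from *Txnrd1* down to *Srxn1* each gene overlapped its neighbour in WT. *Gclc* lay wholly below *Srxn1* in WT and overlapped it in the mutant. The length the authors used was 1470 bases for *Gclm*, 3689 bases for *Txnrd1* and 2469 bases for *Nfe2l2*. GENCODE M21 gives 6291, 7086 and 3796 bases of exon, so the places of these genes and their overlaps depend on the annotation.

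**Figure D3:**
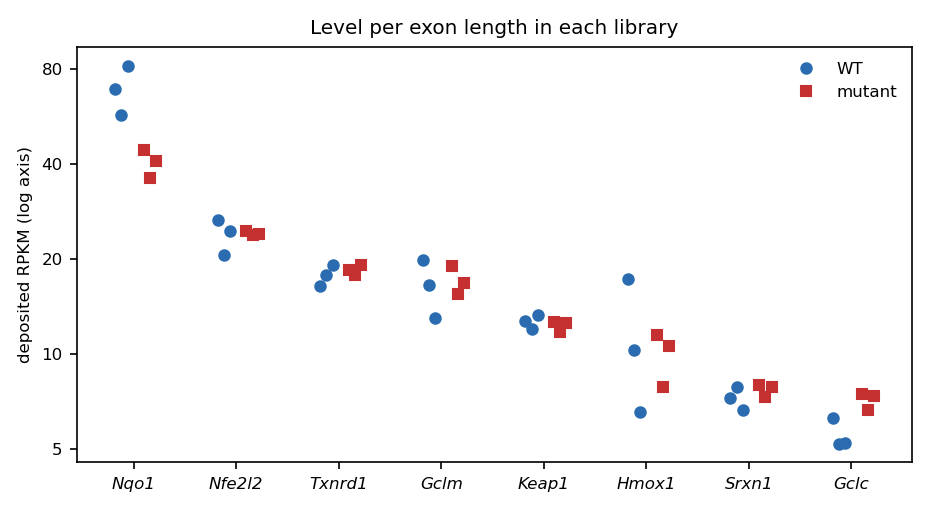
Deposited RPKM on a log axis is plotted for each gene in each library, WT as blue circles and mutant as red squares, with genes ordered by their WT mean. *Nqo1* stands alone at the top in both genotypes, at 57.3 to 81.6 RPKM in WT and 36.2 to 44.4 RPKM in mutant hearts, and the points from *Txnrd1* to *Srxn1* overlap between neighbours in WT.

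Around these 8 genes, the wider pathway was followed through lists of its other members. The counts in each list stand beside shares of all 12955 genes tested by edgeR's quasi-likelihood test. These were 2.80% called higher, 1.84% called lower and 16.5% at an unadjusted p under 0.05. Of 17 tested regulators and partners of NRF2 (small MAF proteins, BACH repressors, ubiquitin ligase parts and co-activators), none was called in either direction by edgeR's quasi-likelihood test, 0 had an unadjusted p under 0.05, and the median log2 fold change was 0.04. The smallest p values belonged to *Maff*, a small MAF partner (log2 fold change 0.34, edgeR's quasi-likelihood test, adjusted p = 0.476), and *Bach2*, a repressor that competes for the same elements (0.31, adjusted p = 0.517). *Sqstm1*, named because the study examined p62 protein in this tissue, was at 594, 551 and 466 CPM in WT replicates 1, 3 and 4 and at 591, 519 and 637 CPM in mutant replicates 1, 2 and 3. The genotypes overlapped, with a log2 fold change of 0.12 (edgeR's quasi-likelihood test, adjusted p = 0.609).

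Among 28 other NRF2 targets tested outside the glutathione transferases, 1 rose and 1 fell, beside 2.80% and 1.84% of all genes tested. Their median log2 fold change was -0.01, and 4 had an unadjusted p under 0.05 by edgeR's quasi-likelihood test, beside 16.5% of all genes tested. *Fth1*, the ferritin heavy chain that stores iron, was at 2024, 2103 and 2285 CPM in WT replicates 1, 3 and 4 and at 1702, 1859 and 1779 CPM in mutant replicates 1, 2 and 3. No mutant value reached the WT range, and the log2 fold change was -0.26 (SE 0.06, edgeR's quasi-likelihood test, adjusted p = 0.0611). *Abcc1*, a pump that exports glutathione conjugates, was at 38.6, 32.8 and 37.1 CPM in WT and at 47.5, 44.0 and 43.5 CPM in mutant replicates in the same order. It lay higher in every mutant library, by 0.31 on the log2 scale (SE 0.08, edgeR's quasi-likelihood test, adjusted p = 0.0814). Both calls were near the threshold and were lost in 8 and 10 of the 18 alternative settings, in those that leave out 1 library at adjusted p values of up to 0.241 for *Fth1* (without mutant replicate 1; also without WT replicates 3 and 4 and mutant replicate 3) and up to 0.304 for *Abcc1* (without each of the 6 libraries). *Fth1* has processed copies elsewhere in the genome whose reads the counting could share.

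In 18 tested genes of glutathione synthesis, recycling and peroxidases, again 1 rose and 1 fell (median 0.06), beside 2.80% and 1.84% of all genes tested. Of the 18, 5 had an unadjusted p under 0.05 by edgeR's quasi-likelihood test, beside 16.5% of all genes tested. *Gpx1*, the main cytosolic glutathione peroxidase, was at 51.8, 66.3 and 53.8 CPM in WT replicates 1, 3 and 4 and at 68.8, 77.8 and 78.7 CPM in mutant replicates 1, 2 and 3. The lowest mutant library lay just above the highest WT library, and the log2 fold change was 0.39 (SE 0.10, edgeR's quasi-likelihood test, adjusted p = 0.0807). *Ggt5*, a membrane enzyme that cleaves glutathione conjugates outside the cell, was at 18.3, 15.6 and 14.5 CPM in WT and 11.5, 11.4 and 11.5 CPM in mutant replicates in the same order. It was lower in each mutant library, with a log2 fold change of -0.49 (SE 0.11, edgeR's quasi-likelihood test, adjusted p = 0.0543). The call of *Gpx1* was lost in 7 of the 18 alternative settings and that of *Ggt5* in 8, among them the fits without WT replicate 1, or without any 1 of the 3 mutant libraries, for both genes, without WT replicate 4 for *Gpx1* and without WT replicate 3 for *Ggt5*, at adjusted p values of up to 0.212 for *Gpx1* and 0.201 for *Ggt5*.

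Among the genes that NRF2 shares with other controls, the counts were also small. The thioredoxin and peroxiredoxin system had 0 calls by edgeR's quasi-likelihood test in 17 tested genes, 2 of them at an unadjusted p under 0.05, with a median log2 fold change of -0.05. Its smallest p values were those of *Txn1*, cytosolic thioredoxin, at -0.16 (edgeR's quasi-likelihood test, adjusted p = 0.211), and *Prdx5*, a peroxiredoxin, at -0.14 (adjusted p = 0.251). The 5 superoxide dismutase and catalase genes had 0 calls by the same test and 1 unadjusted p under 0.05. *Sod1*, the cytosolic dismutase, had a log2 fold change of -0.21 (edgeR's quasi-likelihood test, adjusted p = 0.210). *Cat*, catalase, was at 358, 343 and 308 CPM in WT replicates 1, 3 and 4 and at 469, 312 and 459 CPM in mutant replicates 1, 2 and 3. The female mutant lay within the WT range and the other mutants above it. *Cat* had a log2 fold change of 0.30 (edgeR's quasi-likelihood test, adjusted p = 0.309) with all libraries and was called in 3 alternative settings. These included the fits without mutant replicate 2, at 0.46 (adjusted p = 0.0181), and without both mutant replicate 2 and WT replicate 3, at 0.47 (adjusted p = 0.0383). The last was the replicate block, at 0.40 (adjusted p = 0.00511), where mutant replicate 2 and WT replicate 4 had no partner. Its genotype difference therefore rested on replicates 1 and 3 of each genotype. Of 12 tested genes of haem breakdown and iron storage, *Fth1* alone was called, lower (median -0.09), beside 1.84% of all genes tested.

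*Nqo1* also belongs to other gene groups, whose counts stand beside 2.80% of all genes tested called higher and 1.84% called lower. Of 13 tested quinone and carbonyl reductases *Nqo1* alone was called, with a median log2 fold change of -0.03 for the group. Of 11 tested genes of the aryl hydrocarbon receptor, a ligand-activated factor that also induces *Nqo1*, 1 other was called: *Tiparp*, a feedback inhibitor of the receptor, rose. *Tiparp* was at 14.2, 11.9 and 13.0 CPM in WT replicates 1, 3 and 4 and at 22.2, 17.2 and 19.4 CPM in mutant replicates 1, 2 and 3. The groups did not overlap, and the log2 fold change was 0.59 (SE 0.12, edgeR's quasi-likelihood test, adjusted p = 0.0339), a call lost without WT replicate 3 (adjusted p = 0.102) or without mutant replicate 1 (adjusted p = 0.179).

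Among the 22 tested glutathione transferases, which couple glutathione to electrophiles, 2 fell and none rose by edgeR's quasi-likelihood test, with a median log2 fold change of -0.12 and 7 genes at an unadjusted p under 0.05. Of all genes tested, 1.84% were called lower, 2.80% higher and 16.5% had an unadjusted p under 0.05 by the same test. *Gsta2* was at 2.91, 3.72 and 4.15 CPM in WT replicates 1, 3 and 4 and at 1.19, 0.939 and 1.40 CPM in mutant replicates 1, 2 and 3. It was low in every library and lower in all mutants, with a log2 fold change of -1.61 (SE 0.25, edgeR's quasi-likelihood test, adjusted p = 0.0112). *Gstp2* was at 7.82, 12.2 and 16.2 CPM in WT and at 6.72, 5.72 and 7.29 CPM in mutant replicates in the same order, and its log2 fold change was -0.88 (SE 0.23, edgeR's quasi-likelihood test, adjusted p = 0.0866). Its WT replicate 1 lay just above the mutants, and its call was lost in 11 of the 18 alternative settings. Both have close paralogs, *Gsta1* and *Gstp1*, with which reads could be shared, and the study names both from these libraries.

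**Figure D4:**
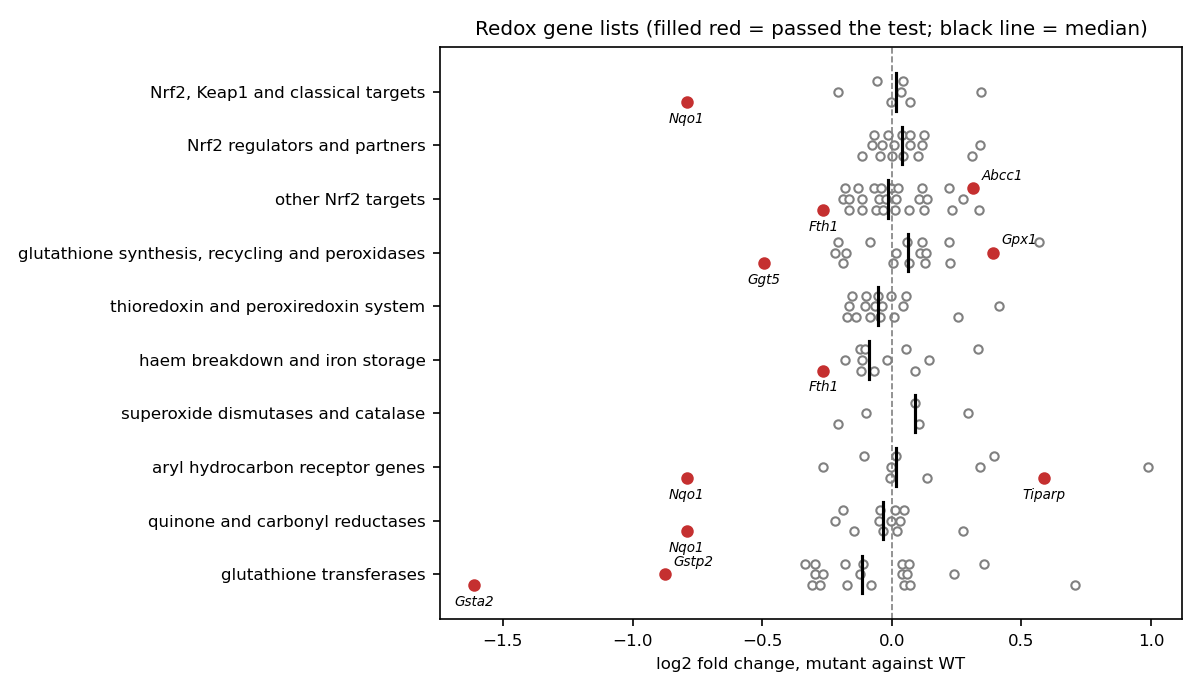
The log2 fold change, mutant against WT, is plotted for each tested gene of 10 redox gene lists, in red with its name where it passed edgeR's quasi-likelihood test and with the list's median as a black line. The medians lie between -0.12 and 0.09, and *Gsta2* and *Gstp2* stand farthest to the left, followed by *Nqo1*; *Nqo1* and *Fth1* appear in more than 1 list.

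The genes whose CPM followed *Nqo1* most closely over the 6 libraries, by the Pearson correlation of log2(CPM + 0.5) among 12011 genes, were *Arhgef11* (0.995), *Tmem69* (0.993), *Klra9* (0.993), *Cpsf4* (0.992) and *Mtap2* (0.991). *Klra9* and *Cpsf4* had log2 fold changes of -0.76 and -0.49, and those of the other three were -0.20, -0.13 and -0.37. They were chosen over all 6 libraries with the genotype difference left in, so a lower value in the mutant follows from the choice and is only a description. None of these genes was in the redox lists.

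Some markers of other cell types also differed between genotypes, while the summed CPM of each list given overlapped. Of all genes tested, 2.80% were called higher and 1.84% lower. Of 8 smooth muscle and pericyte markers, 4 were called lower (*Kcnj8*, *Rgs5*, *Pdgfrb* and *Abcc9*) and 1 higher (*Acta2*), with summed CPM of 981 to 1034 in WT and 865 to 1028 in mutant libraries. Of 8 endothelial markers, *Tie1* and *Egfl7* were called lower, with sums of 2164 to 2876 and 2335 to 2544 CPM. Of 8 fibroblast markers, *Col1a1* was called higher, with sums of 2041 to 2316 and 2139 to 2504 CPM. None of 10 macrophage markers was called by edgeR's quasi-likelihood test, 0 of them at an unadjusted p under 0.05, with sums of 669 to 727 and 675 to 794 CPM. The 2 erythroid and 3 adipocyte markers tested had no call and no unadjusted p under 0.05, and *Adipoq* was at most 1.90 CPM in every library. *Cidec* was at 0.509, 1.97 and 0.216 CPM in WT replicates 1, 3 and 4 and at 1.30, 3.65 and 2.01 CPM in mutant replicates 1, 2 and 3. Its log2 fold change was 1.41 (edgeR's quasi-likelihood test, adjusted p = 0.313), and those of *Plin1* and *Adipoq* were 0.54 and 0.13. The part of these cell types in the fall of *Nqo1* was not tested.

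**Figure D5:**
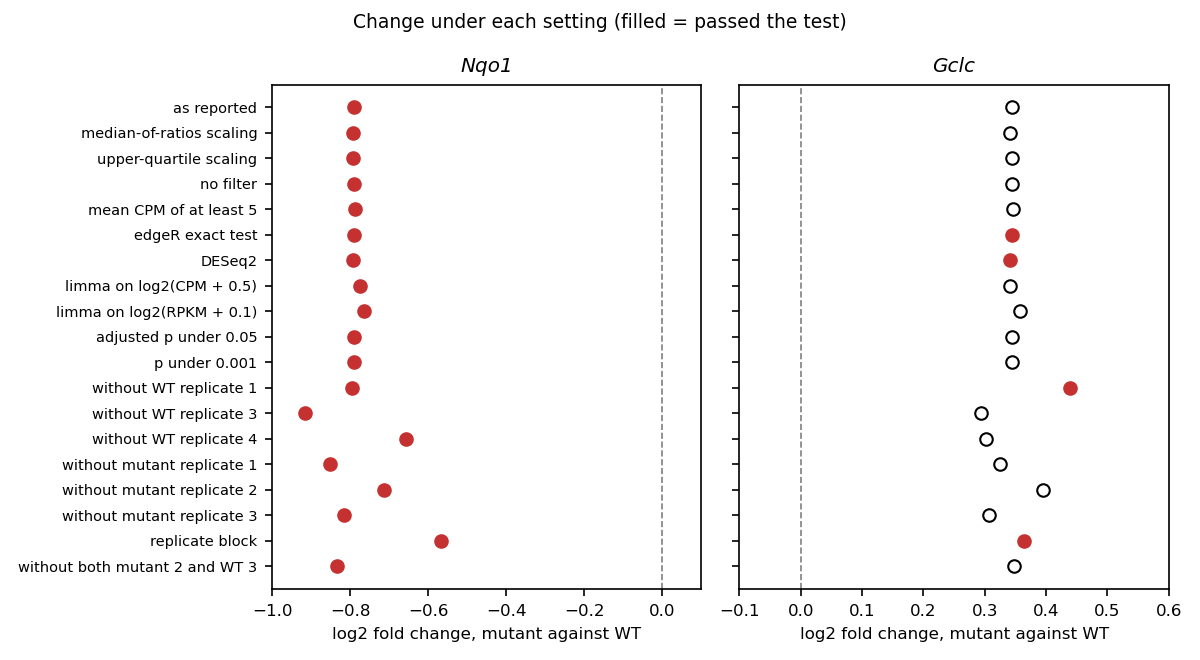
The log2 fold change of *Nqo1* (left) and *Gclc* (right), mutant against WT, is plotted under the reported fit and 18 alternative settings, filled where the gene passed the test of that setting. *Nqo1* is filled throughout, between -0.91 and -0.57, and *Gclc*, between 0.29 and 0.44, is filled in 4 settings.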

How the data were processed

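RNA-seq was done on ventricular myocardium of 3 WT and 3 *Dst-b* mutant mice. The authors used OLego for mapping to GRCm38/mm10 and Quantas for gene quantification. The deposited values are an estimated count of tags, not scaled to the library although the labels speak of CPM, and an RPKM per gene. The paper names a TruSeq protocol and the labels a NEBNext directional kit. Estimated counts were rounded (in each library, 8.45% to 13.8% of genes were not whole). Depth was 40693854 to 57580110 tags.

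Genes reaching 1 CPM in 3 or more libraries (12955) were tested with edgeR 4.0.16 in R 4.3.3 (TMM, genotype as the only term, quasi-likelihood test, two-sided), with Benjamini-Hochberg adjustment over all of them, and calls required p below 0.01 and adjusted p below 0.1, the thresholds of the study's methods (its results text gives a p of 0.001). Standard errors and 95% intervals come from the same fit, and an SD is over 3 mice. P values speak of the spread between these hearts, for which the chi-square per degree of freedom between counts of the same genotype was 14.8 to 30.0. The fit was tested on simulated data. No per-sample column was left unused.

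The 8 genes and the lists were chosen with earlier results of these data known. Named are the 8 genes, in each list the called genes with the smallest p (at most 4, or the 2 smallest p values where none was called), and the 5 genes most correlated with *Nqo1* (mean CPM 2 or more). No macrophage or erythroid marker is named. Outside this rule are the marker *Abcc9* as a further called gene, the markers *Myl7* and *Adipoq*, and *Dst* and further sex-linked genes. So are *Sqstm1*, *Txnip*, *Cyp1a1*, *Nqo2* and the neighbours of *Nqo1*. Alternatives used other scalings, filters and thresholds, edgeR's exact test, DESeq2 1.42.0, limma 3.58.1, each library left out, and a replicate block. The block compares only replicate numbers that both genotypes have, so WT replicate 4 and mutant replicate 2 do not bear on its genotype difference. The fit without both mutant replicate 2 and WT replicate 3 was chosen after seeing the data. Positions are from RefSeq (GRCm38.p6), the same build, and exon overlaps from GENCODE M21. Plots were made with Python 3.11.15 and matplotlib 3.10.9.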

Additional observations from a re-analysis of the deposited data

How the results depend on the processing

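*Nqo1* stayed called in all 18 alternative settings, with adjusted p values of up to 0.0520 (edgeR's quasi-likelihood test without WT replicate 1). The number of the 8 genes called was 1 in 14 settings and 2, *Nqo1* and *Gclc*, in 4: edgeR's exact test, DESeq2, without WT replicate 1 and the replicate block, so that it ran from 1 to 2 when a library was left out. Calls over all genes, 601 as reported, came to 1028 with DESeq2, 304 at an adjusted p under 0.05, 280 at a p under 0.001 and 391 without both mutant replicate 2 and WT replicate 3. They ran from 141 (without mutant replicate 1) to 489 (without mutant replicate 2) when 1 library was left out, which also leaves fewer samples. Log2 fold changes near 0 changed sign. That of *Nfe2l2* was 0.0064 with limma on log2(CPM + 0.5), 0.021 with limma on log2(RPKM + 0.1) and -0.10 to 0.083 with a library left out, and leave-one-out ranges were -0.49 to 0.23 for *Hmox1*, -0.11 to 0.20 for *Gclm* and -0.014 to 0.10 for *Txnrd1*. None of these values was called, and the cause was not tested.

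The labels share only replicate numbers 1 and 3 between genotypes, and samples with the same number did not deviate together (r = 0.007 and -0.05), so the numbers were not taken as pairs. With the replicate block, WT replicate 4 and mutant replicate 2 had no partner, so the genotype difference rested on replicates 1 and 3. In that fit 966 genes were called, and of the 8 genes *Nqo1* (-0.57) and *Gclc*. Signs changed for *Nfe2l2* (0.044), *Keap1* (0.021), *Gclm* (-0.030) and *Maff* (-0.091).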

Other observations

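*Txnip*, which encodes the thioredoxin-binding protein that restrains thioredoxin, was chosen after its values were seen. It was at 1012, 994 and 442 CPM in WT replicates 1, 3 and 4 and at 1019, 1126 and 1121 CPM in mutant replicates 1, 2 and 3. WT replicate 4 lay far below the other 5 libraries and was also the WT library with the lowest *Hmox1* and *Gclm* and the highest *Nqo1*. The log2 fold change of *Txnip* was 0.42 (SE 0.24, edgeR's quasi-likelihood test, adjusted p = 0.432). *Cyp1a1*, the classical target of the aryl hydrocarbon receptor and also chosen after its values were seen, was at 0.455, 1.65 and 0.324 CPM in WT replicates 1, 3 and 4 and at 1.54, 1.47 and 1.72 CPM in mutant replicates 1, 2 and 3. It was near the filter in every library, WT replicate 3 lay among the mutants, and it was not called (0.99, SE 0.51, edgeR's quasi-likelihood test, adjusted p = 0.365). *Nqo2*, the closest relative of *Nqo1* in the lists, was at 42.8, 45.1 and 43.6 CPM in WT and 46.4, 40.6 and 46.4 CPM in mutant replicates in the same order. Its log2 fold change was 0.02 (95% interval -0.15 to 0.19), which does not overlap the interval of *Nqo1*.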
